A study of Saccharomyces cerevisiae with 14 samples.

Results

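The 10 genes described here act in thiamine (vitamin B1) synthesis and uptake in Saccharomyces cerevisiae and were followed across 7 groups of arrays: THI2, THI4, THI6, THI7, THI13, THI20, THI21, THI72, THI73 and PHO3. They were taken as the probe sets annotated to those gene names, which gave 10 probe sets for 10 genes out of 5498 probe sets that matched 1 gene each (5449 genes). The probe set of THI13 is of a shared design and can also take up transcript of the near-identical genes THI5, THI11 and THI12, which have no probe set of their own here. The other members each have a probe set that is not of a shared design.

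Thiamine is assembled from a thiazole and a pyrimidine moiety that are made separately and then joined. Thi4 makes the thiazole, enzymes of the Thi5 family (which includes Thi13) make the pyrimidine, Thi20 and Thi21 phosphorylate the pyrimidine and Thi6 couples the moieties. Thi7 is the main thiamine transporter of the plasma membrane, Thi72 is its relative, and the acid phosphatase Pho3 removes phosphate from thiamine phosphates outside the cell. Thi2, with Thi3 and Pdc2, activates transcription of genes of the pathway when thiamine is scarce.

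Total RNA came from 14 cultures in rich YPD medium, harvested in log phase and hybridised to Affymetrix Yeast Genome 2.0 arrays, 1 culture per array. The groups were npt1Δ, wild type with 5 mM nicotinamide, pnc1Δ, bna1Δ, tna1Δ, and a pair each of untreated wild-type arrays coded ML1 and ML8, with 2 arrays (A and B) in every group. All strains share the haploid background MATa his3D200 leu2D1 met15D0 trp1D63 ura3-167, and each deletion carries kanMX4 in place of the gene. Pnc1 converts nicotinamide to nicotinic acid and Npt1 takes nicotinic acid on towards NAD+, Bna1 is an enzyme of the route that starts from tryptophan, and Tna1 imports nicotinic acid. Sirtuins such as Sir2 and Hst1 consume NAD+ and are inhibited by nicotinamide, and the series asks how expression differs under conditions that inhibit them. The labels name 1 strain per genotype and call the arrays of a group duplicate cultures, so p-values measure the spread between cultures of a strain. The labels do not say which wild-type pair belongs to which condition, and all 4 wild-type arrays served as the control. The spread therefore also takes in any difference between the ML1 and ML8 pairs, and 1 estimate of it per gene serves all groups. It further takes in anything that arrays of the same letter (A or B) share, as the letters were not paired.

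Median signal lay between 9.75 and 9.84 (log2) on the 14 arrays, and replicate arrays correlated with r from 0.9923 to 0.9979 across probe sets. Each deleted gene lay far below wild type in its own strain: NPT1 read 2.18 and 2.19 in npt1Δ against 12.34 to 12.54 in wild type. The nicotinamide arrays stood apart from all others in genes of cell type. The mean log2 signal of 7 markers of a cells was 9.36 and 7.0 on the nicotinamide arrays A and B, and between 12.97 and 13.12 on the other 12 arrays. The mean of 7 markers of haploid cells was 7.82 and 5.99 on the nicotinamide arrays, and between 10.69 and 10.81 elsewhere. All 14 of these genes were lower with nicotinamide than in wild type, against 7.02% of all probe sets called lower (limma, described with the first comparison). The mean of 4 markers of alpha cells was 5.70 to 5.84 in npt1Δ and with nicotinamide, and 4.32 to 4.57 elsewhere. Only 1 of the 4 passed the test in either condition: STE3 was higher by 4.85 ± 0.21 in npt1Δ and 5.06 ± 0.21 with nicotinamide (log2, SE). SAG1 differed by 0.12 and 0.19 and MF(ALPHA)2 by -0.08 and 0.03 in these conditions, and MF(ALPHA)1, which encodes the alpha pheromone itself, was at or near background on all arrays. The median 3′ minus 5′ signal of 8 pairs of control probe sets, a measure of RNA quality, was 1.78 and 1.70 (log2) with nicotinamide, the lowest of the 14 arrays, and at most 2.11. The nicotinamide arrays are labelled as the MATa wild type. On average NPT1, PNC1, BNA1 and TNA1 read 12.44, 11.46, 12.70 and 14.51 there, far above their levels in the deletion strains. Whether nicotinamide itself lowered the a-cell and haploid markers, or the arrays hold other cultures than labelled, was not tested. Each nicotinamide value below therefore rests on the labels. The part of these marker shifts in the thiamine results was not tested.

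Of the 10 thiamine genes, 4 rose in npt1Δ and none fell: THI13, THI73, THI4 and THI2 were between 2.57-fold and 4.30-fold higher than in wild type. Across all probe sets tested, 3.56% were called higher and 0.637% lower in this comparison (limma with Benjamini-Hochberg adjustment, adjusted p under 0.05). The median difference of the 10 genes was 0.38 (log2), and that of all probe sets was -0.03. All 10 genes were above the background limit on all 14 arrays.

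THI4, the thiazole synthase, read 8.33 and 8.19 (log2) in npt1Δ, against 6.69, 6.74, 6.86 and 6.82 in wild type. Both npt1Δ arrays lay above all wild-type arrays with a wide gap and little spread within either group. The difference was 1.48 ± 0.06 (log2, SE; 95% interval 1.33 to 1.62), a 2.78-fold rise with an adjusted p of 1.27e-07. Each value is an average over a culture, so more cells that express a gene and more RNA per cell cannot be told apart.

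THI13, of the pyrimidine synthase family, read 7.62 and 7.54 in npt1Δ, against 5.51, 5.32, 5.74 and 5.34 in wild type. The groups did not overlap. The difference was 2.10 ± 0.18 (95% interval 1.69 to 2.51), a 4.30-fold rise with an adjusted p of 4.31e-05. Because the probe set is shared, this value belongs to the family and not to THI13 alone.

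THI2, the transcriptional activator of the pathway, read 6.31 and 6.31 in npt1Δ, against 4.85, 4.98, 5.19 and 4.79 in wild type. The npt1Δ arrays were level with each other and above every wild-type array. The difference was 1.36 ± 0.11 (95% interval 1.12 to 1.60), a 2.57-fold rise with an adjusted p of 1.8e-05.

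THI73, a putative plasma membrane permease of the Dal5 family that is known to be repressed by thiamine, read 7.58 and 7.42 in npt1Δ, against 5.84, 6.12, 5.70 and 5.83 in wild type. Again the groups did not overlap. The difference was 1.63 ± 0.12 (95% interval 1.35 to 1.91), a 3.09-fold rise with an adjusted p of 1.54e-05.

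**Figure D1:**
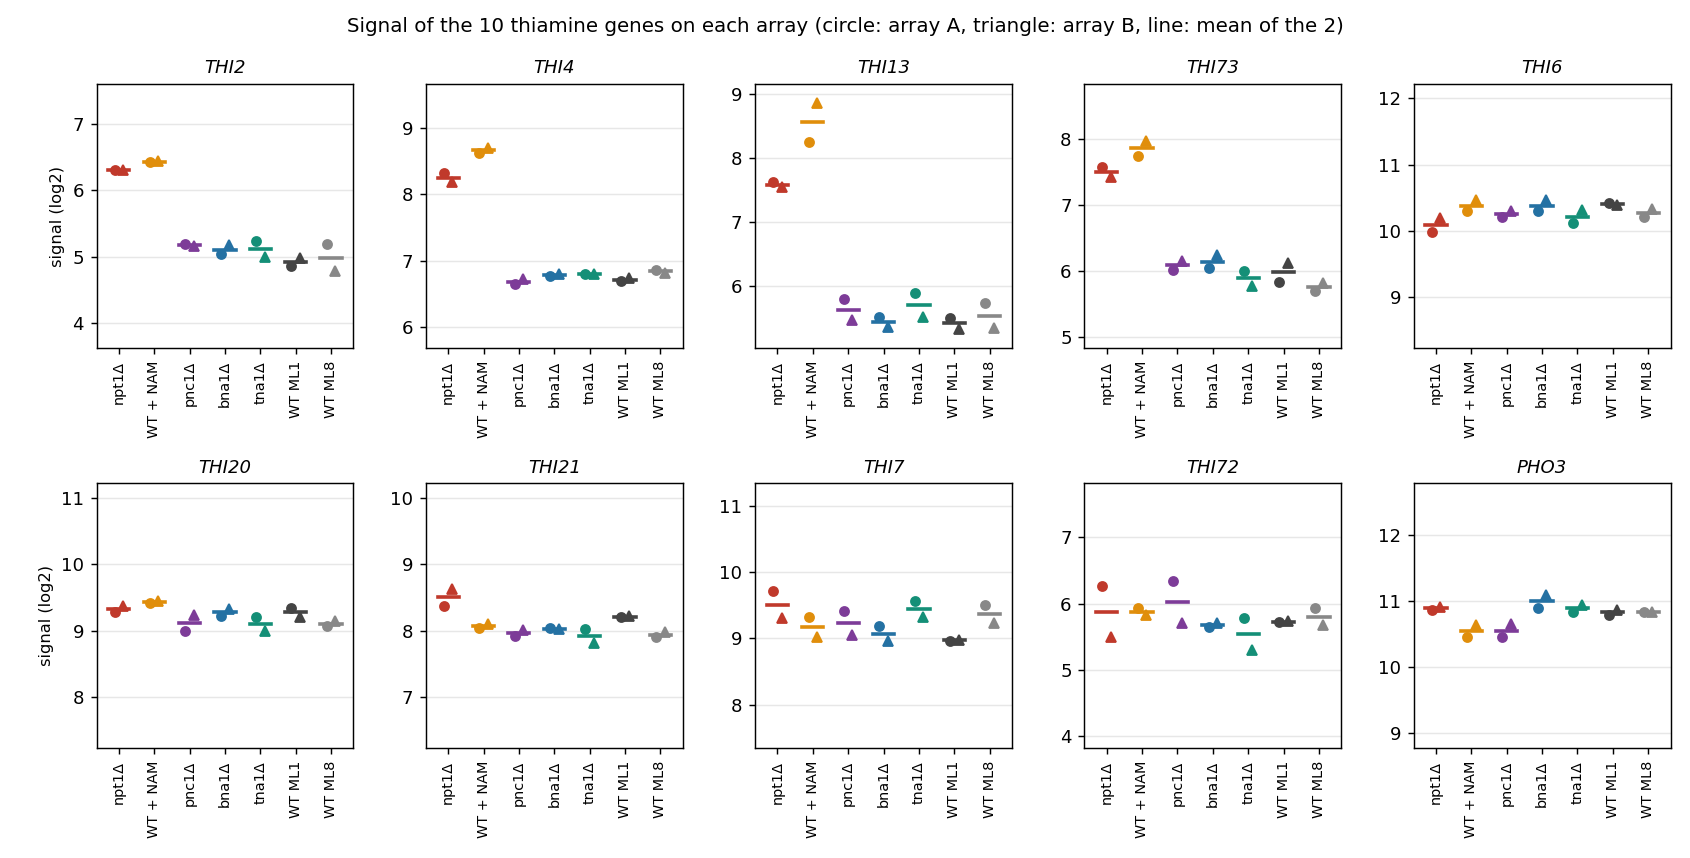
Signal (log2) of the 10 thiamine genes on each of the 14 arrays, by group. A circle marks array A, a triangle array B and a line their mean. The panels span the same number of log2 units, except that of THI13, which spans slightly more. In THI2, THI4, THI13 and THI73 the npt1Δ and nicotinamide arrays sit above the 10 arrays of the other groups, and in the remaining 6 genes no group stands that far from the rest.

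The enzymes that join and phosphorylate the moieties did not pass the test in npt1Δ. THI21, a kinase of the pyrimidine, came nearest, with 8.37 and 8.63 in npt1Δ, against 8.21, 8.21, 7.90 and 7.98 in wild type. Both npt1Δ arrays lay above every wild-type array, though array A only narrowly. The difference was 0.43 ± 0.11 (95% interval 0.18 to 0.67, adjusted p = 0.0661). Against the ML8 pair alone it was 0.56 with an adjusted p of 0.0193, and against the ML1 pair alone 0.29 with an adjusted p of 0.123. Without ML1 array A it was 0.47, with an adjusted p of 0.0491.

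THI6, which couples the moieties, read 9.98 and 10.19 in npt1Δ, against 10.42, 10.39, 10.21 and 10.32 in wild type. The npt1Δ arrays were the lower ones, array B by a narrow margin. The difference was -0.25 ± 0.09 (95% interval -0.46 to -0.04, adjusted p = 0.231). THI20, the second pyrimidine kinase, differed by 0.13 (95% interval -0.08 to 0.35), with overlapping arrays.

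The transporters and the phosphatase did not pass in npt1Δ either. THI7 differed by 0.34 (95% interval -0.07 to 0.76, adjusted p = 0.417), with 9.72 and 9.30 in npt1Δ against 8.96 to 9.50 in wild type. Its array A read above array B in 6 of 7 groups, and its wild-type pairs lay apart, at 8.96 and 8.98 in ML1 against 9.50 and 9.23 in ML8. THI72 differed by 0.11 (95% interval -0.39 to 0.61), the widest interval among the 10 genes, with npt1Δ arrays at 6.26 and 5.49. PHO3 differed by 0.06 (95% interval -0.12 to 0.24). In all, the npt1Δ arrays lay wholly above wild type for 5 of the 10 genes and wholly below for 1, against 9.42% and 13.3% of all probe sets.

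With nicotinamide, the same 4 genes rose and PHO3 fell. The rises of THI13, THI73, THI4 and THI2 were 8.44-fold, 3.95-fold, 3.71-fold and 2.79-fold over untreated wild type. In this comparison 8.88% of all probe sets were called higher and 7.02% lower. The median difference of the 10 genes was 0.18 (log2), and that of all probe sets was below 0.01 in size. The npt1Δ and nicotinamide comparisons share the 4 wild-type arrays, so their overlap is given as values only.

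THI4 read 8.63 and 8.71 with nicotinamide, against 6.69 to 6.86 in untreated wild type, and differed by 1.89 ± 0.06 (adjusted p = 1.01e-08). THI13 read 8.25 and 8.86 with nicotinamide, against 5.32 to 5.74 in untreated wild type, and differed by 3.08 ± 0.18 (95% interval 2.67 to 3.49, adjusted p = 9.48e-07). The nicotinamide arrays of THI13 were the farthest apart of the 4 genes, yet the lower one was far above every wild-type array.

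THI2 read 6.43 and 6.44 with nicotinamide, against 4.79 to 5.19 in untreated wild type, and differed by 1.48 ± 0.11 (adjusted p = 4.08e-06). THI73 read 7.74 and 7.97 with nicotinamide, against 5.70 to 6.12 in untreated wild type, and differed by 1.98 ± 0.12 (adjusted p = 1.46e-06). None of the 4 genes had overlapping groups.

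Since the nicotinamide arrays stood apart in cell-type genes, and array B more so than array A, each was also left out. With array B alone the differences were 3.38 for THI13, 2.10 for THI73, 1.93 for THI4 and 1.49 for THI2. With array A alone they were 2.78 for THI13, 1.87 for THI73, 1.85 for THI4 and 1.47 for THI2. All 4 genes had an adjusted p under 0.05 either way, but a lone array has no spread of its own, and the fit then assumes that it varies like the other groups. In npt1Δ the mean of the a-cell markers was 13.04 and 13.01.

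PHO3, the acid phosphatase, read 10.46 and 10.64 with nicotinamide, against 10.79, 10.87, 10.83 and 10.83 in untreated wild type. Both nicotinamide arrays were below all wild-type arrays, though the gap was about as wide as the spread between them. The difference was -0.28 ± 0.08 (95% interval -0.45 to -0.10, adjusted p = 0.0392), which is 1.21-fold. The call was lost when either nicotinamide array was left out, with -0.19 and an adjusted p of 0.298 without array A and -0.37 and an adjusted p of 0.0503 without array B. It was also lost without ML1 array B (adjusted p = 0.0879), ML8 array A (0.0633) or ML8 array B (0.0714).

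The remaining 5 genes gave no call with nicotinamide. THI20 read 9.42 and 9.45, against 9.35, 9.20, 9.06 and 9.15 in untreated wild type, above all 4 by a small margin (0.24, 95% interval 0.03 to 0.46, adjusted p = 0.123, and 0.30 with an adjusted p of 0.0419 without ML1 array A). THI21 differed by less than 0.01 in size (95% interval -0.25 to 0.24) and THI7 also by less than 0.01 (95% interval -0.41 to 0.42). THI6 and THI72 differed by 0.04 and 0.11. In all, the nicotinamide arrays lay wholly above wild type for 5 of the 10 genes and wholly below for 1, against 16.4% and 16.7% of all probe sets.

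**Figure D2:**
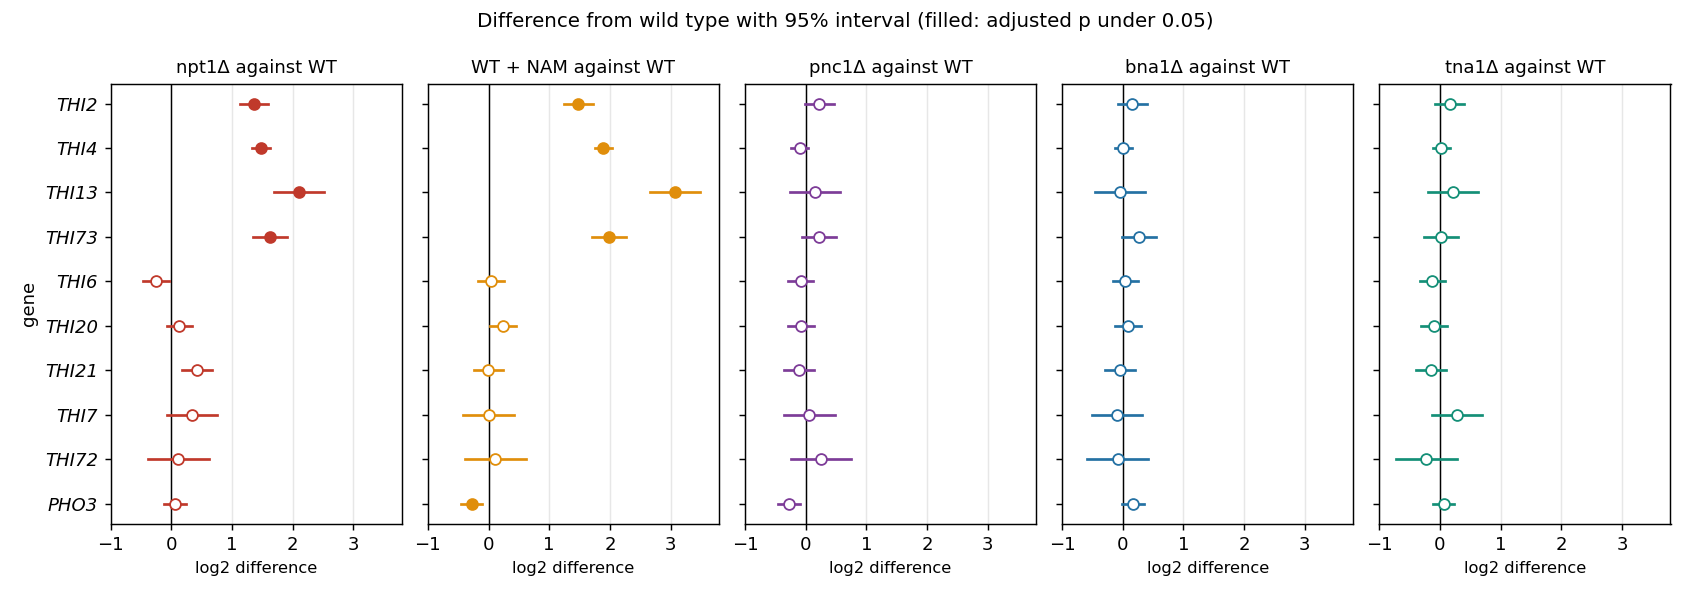
Log2 difference of each thiamine gene from wild type in the 5 conditions, with the 95% interval from limma; filled points have an adjusted p under 0.05. THI2, THI4, THI13 and THI73 lie between 1.36 and 3.08 in the npt1Δ and nicotinamide panels, and no point is filled in the pnc1Δ, bna1Δ and tna1Δ panels.

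The nicotinamide and npt1Δ cultures were also compared with each other, which leaves the wild-type arrays out of the difference. THI13 and THI4 were higher with nicotinamide and PHO3 was lower, against 5.29% of all probe sets called higher and 3.75% called lower. THI13 was higher by 0.98 ± 0.21 (95% interval 0.50 to 1.45, 1.97-fold, adjusted p = 0.0168), and THI4 by 0.41 ± 0.07 (95% interval 0.25 to 0.58, 1.33-fold, adjusted p = 0.00577). PHO3 read 10.46 and 10.64 with nicotinamide against 10.87 and 10.91 in npt1Δ, a difference of -0.34 ± 0.09 (adjusted p = 0.0481). These 3 calls depended on the settings: of 12 alternatives, THI4 kept its call in 9, THI13 in 7 and PHO3 in 1. PHO3 was lost also where every array was kept, for example with quantile normalization (adjusted p = 0.0662) or robust moderation (adjusted p = 0.0524). Without nicotinamide array B no member passed, and THI13 then differed by 0.67 with an adjusted p of 0.153 and THI4 by 0.38 with an adjusted p of 0.0593. Without npt1Δ array B no member passed either, without npt1Δ array A there was 1, and without nicotinamide array A there were 2.

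THI73 differed by 0.35 between nicotinamide and npt1Δ (95% interval 0.03 to 0.68, adjusted p = 0.183), and THI2 by 0.12 (95% interval -0.15 to 0.40). THI21 was the member farthest in the other direction without passing, at -0.43 (95% interval -0.71 to -0.14, adjusted p = 0.0698), with 8.04 and 8.10 with nicotinamide against 8.37 and 8.63 in npt1Δ. THI6 differed by 0.29 (adjusted p = 0.149), and the intervals of THI20, THI7 and THI72 included 0.

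**Figure D3:**
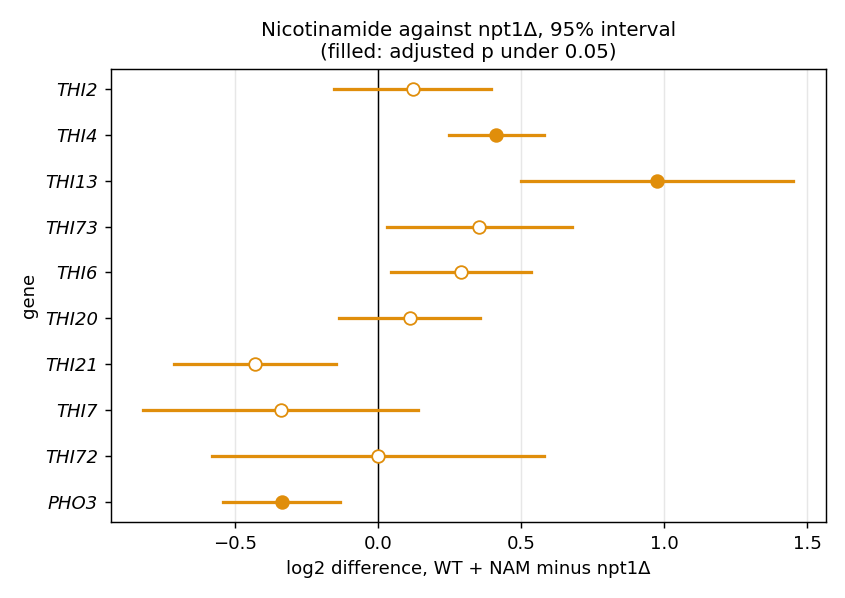
Log2 difference of each thiamine gene between the nicotinamide and npt1Δ cultures, with the 95% interval from limma; filled points have an adjusted p under 0.05. THI13 (0.98) and THI4 (0.41) lie to the right of 0 and PHO3 (-0.34) to the left.

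None of the 10 genes passed in pnc1Δ, bna1Δ or tna1Δ against wild type, by limma. At an unadjusted p under 0.05 there was 1 in pnc1Δ, 0 in bna1Δ and 0 in tna1Δ. Counts at this threshold, here and below, have no share of all probe sets beside them and are given as values only. Of all probe sets 2.24% were called in pnc1Δ, 0.0182% in bna1Δ and 0.0182% in tna1Δ, so few calls of any kind were made in the last 2 strains. The gene with an unadjusted p under 0.05 in pnc1Δ was PHO3, which read 10.46 and 10.64 there, against 10.79 to 10.87 in wild type, a difference of -0.28 (95% interval -0.45 to -0.10, adjusted p = 0.112). Both pnc1Δ arrays were below all wild-type arrays, as for 13.4% of all probe sets, and at the level of the nicotinamide arrays. The unadjusted p by limma was 0.00569 in pnc1Δ and 0.00568 with nicotinamide. Only the adjustment, made within each comparison, gave PHO3 a call with nicotinamide and none in pnc1Δ. PHO3 array A read above array B in 0 of 7 groups, and with the array letter as a replicate block PHO3 passed in pnc1Δ (adjusted p = 0.0263).

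The 4 genes that rose in npt1Δ stayed near wild type in these strains, with intervals that leave out rises of that size. For THI4 the difference was -0.10 (95% interval -0.24 to 0.04) in pnc1Δ, 0.01 (95% interval -0.14 to 0.15) in bna1Δ and 0.03 (95% interval -0.12 to 0.17) in tna1Δ. For THI13 the pnc1Δ difference was 0.15 (95% interval -0.26 to 0.57), the bna1Δ difference -0.04 (95% interval -0.45 to 0.37) and the tna1Δ difference 0.22 (95% interval -0.19 to 0.63). THI2 read 5.18 and 5.17 in pnc1Δ, 5.04 and 5.17 in bna1Δ and 5.23 and 4.99 in tna1Δ, against 4.79 to 5.19 in wild type. All 3 strains overlapped wild type. THI73 read 6.02 and 6.16 in pnc1Δ, 6.04 and 6.25 in bna1Δ and 6.0 and 5.78 in tna1Δ, against 5.70 to 6.12 in wild type, again with overlap.

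Differences between the conditions come from the same fit as the comparisons with wild type and add no independent evidence, but they carry their own tests. In pnc1Δ against npt1Δ, THI13 (-1.95), THI4 (-1.58), THI73 (-1.41) and THI2 (-1.14) were lower, with adjusted p from 2.88e-07 to 0.000248, against 4.77% of all probe sets called lower. THI21 was also lower in that comparison, at 7.92 and 8.02 in pnc1Δ against 8.37 and 8.63 in npt1Δ (-0.54 ± 0.13, adjusted p = 0.0358). That call was lost without npt1Δ array B (adjusted p = 0.265), pnc1Δ array A (0.232) or pnc1Δ array B (0.103). In bna1Δ against npt1Δ the same 4 genes were lower, with differences of -1.21 to -2.15 (3.07% of all probe sets called lower), and THI21 did not pass (-0.47, adjusted p = 0.0873). In pnc1Δ against the nicotinamide cultures they were lower, with differences of -1.26 to -2.92 (9.37% of all probe sets called lower). Between bna1Δ and tna1Δ no member passed and none had an unadjusted p under 0.05, with differences from -0.38 to 0.26 and 0.0364% of all probe sets called.

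Over the 7 groups, the means of THI2, THI4, THI13 and THI73 had the same order at the top, with nicotinamide first and npt1Δ second. In each gene the arrays of these groups lay above those of every other group. For THI2 the gap between the first and the second group was 0.12, with an interval (-0.15 to 0.40) that included 0. For THI73 it was 0.35 and did not pass either (adjusted p = 0.183 by limma), so the order of these groups was called for THI4 and THI13 only. Below them the neighbouring groups mostly overlapped, and their means lay widest apart in THI73, from 5.76 in ML8 to 6.15 in bna1Δ. The 7 group means of THI13 spanned 3.14 (log2), those of THI73 2.09, of THI4 1.99 and of THI2 1.52. The other 6 genes spanned 0.32 (THI6) to 0.58 (THI21).

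The wild-type pairs ML1 and ML8 gave no called member between them (1 with an unadjusted p under 0.05, and 0.0728% of all probe sets called). THI7 lay farthest apart, at 8.96 and 8.98 in ML1 against 9.50 and 9.23 in ML8 (-0.40, 95% interval -0.81 to 0.01). THI21 differed by 0.27 (95% interval 0.05 to 0.49, adjusted p = 0.226), with 8.21 and 8.21 in ML1 against 7.90 and 7.98 in ML8. ML1 lay wholly above ML8 in 4 of the 10 genes and wholly below in 2, all without a call. These 2 counts have no share of all probe sets beside them and are given as values only. Lack of overlap between these pairs is therefore not read as a difference.

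Genes outside the thiamine lists with a similar pattern were sought among 526 whose group means spanned at least 1 log2 unit. By Pearson correlation over the 7 group means, those nearest THI13 were YCL021W-A, LOH1 and SMA1 (each r = 0.997). Those nearest THI4 were YGL258W-A, DAL4 and MAM1 (r from 0.997 to 0.998), and those nearest THI73 were SPO75, OSW2 and MIP6 (r from 0.993 to 0.997). SMA1, for example, averaged 5.55 in npt1Δ and 7.36 with nicotinamide, against 2.05 in wild type. That wild-type value is below the background limit (2.22 to 2.26), and LOH1 (2.26) and YCL021W-A (2.30) were near it in wild type. The size of these rises is therefore uncertain. Among the members, THI2, THI4, THI13 and THI73 correlated with each other at r from 0.977 to 0.992. With 7 points, of which 2 are high, these values describe the shared high groups and little else.

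The other thiamine genes of the pathway list changed in few cases. Of 10 listed, 7 had a probe set. In npt1Δ 1 was called higher (3.56% of all probe sets) and none lower. With nicotinamide 1 was called higher (8.88% of all probe sets) and 1 lower (7.02%). NRT1, a close relative of THI7 that carries nicotinamide riboside and also thiamine, read 10 and 10.04 in npt1Δ and 10.09 and 10.20 with nicotinamide, against 7.86, 8.10, 8.09 and 8.10 in wild type. Both conditions stood about the same distance above wild type with no overlap. The differences were 1.98 ± 0.08 (adjusted p = 8e-08) in npt1Δ and 2.10 ± 0.08 (adjusted p = 2.58e-08) with nicotinamide, and 0.12 (95% interval -0.09 to 0.33) between these conditions. NRT1 did not pass in pnc1Δ, where it read 8.25 and 8.15. Of the transporter family NRT1, THI7 and THI72, which are similar in sequence, NRT1 alone was called in either comparison.

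THI22, a relative of THI20 and THI21, fell with nicotinamide, with 8.73 and 8.61 against 9.65, 9.64, 9.23 and 9.41 in untreated wild type. Both nicotinamide arrays were well below wild type. The difference was -0.81 ± 0.11 (adjusted p = 0.000627). In npt1Δ it read 9.35 and 9.43 and differed from wild type by -0.09 (95% interval -0.35 to 0.16), and nicotinamide against npt1Δ gave -0.72 ± 0.13 (adjusted p = 0.00652). This last call was lost without npt1Δ array B (adjusted p = 0.0555) or nicotinamide array B (0.0657).

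The regulators THI3 and PDC2, the kinase gene THI80 that makes thiamine diphosphate, the mitochondrial carrier gene THI74 and PET18, which is weakly similar to thiamine genes, did not pass in any of the 5 comparisons with wild type. PDC2 read 8.98 and 8.98 in npt1Δ, against 9.19, 9.13, 9.16 and 9.10 in wild type, a difference of -0.16 (95% interval -0.27 to -0.05, adjusted p = 0.127). THI3 differed by -0.09 (95% interval -0.23 to 0.04) in npt1Δ and -0.03 (95% interval -0.16 to 0.11) with nicotinamide. In pnc1Δ, bna1Δ and tna1Δ none of the 7 genes was called, and 0, 0 and 3 had an unadjusted p under 0.05. Without the share of all probe sets at that threshold, these counts are not read as a result.

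**Figure D4:**
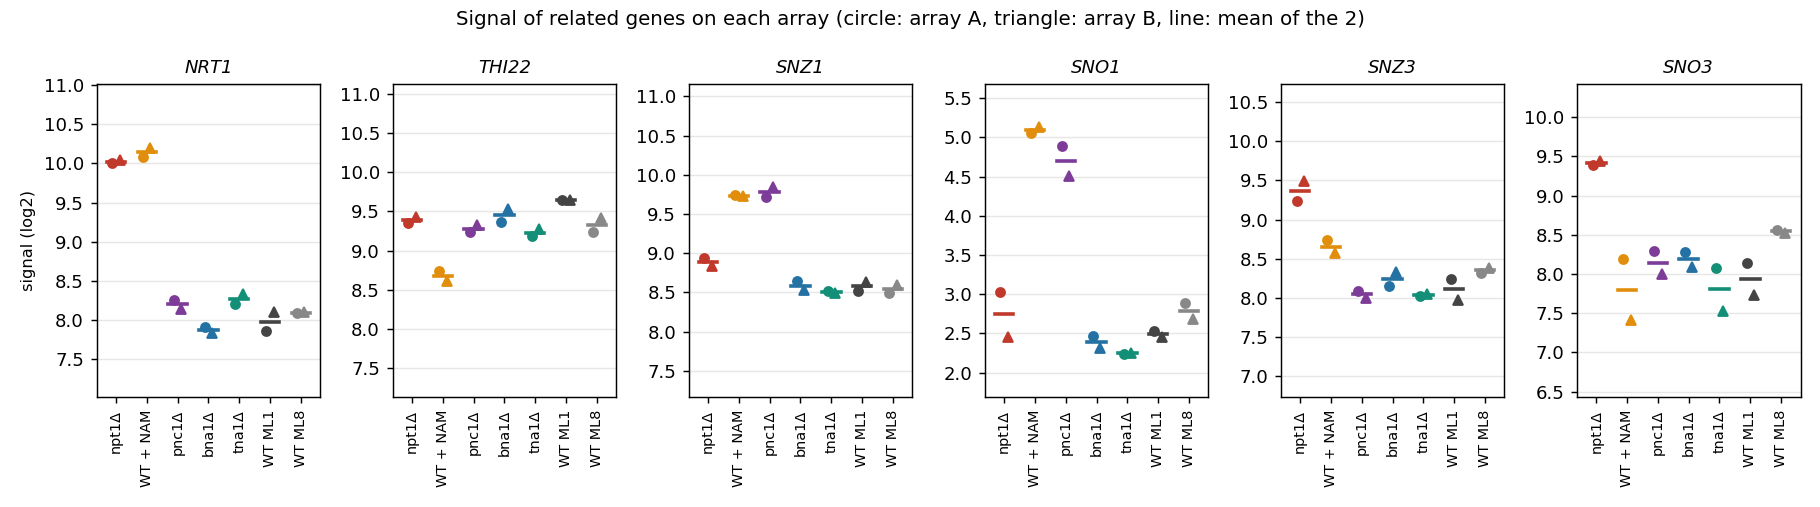
Signal (log2) of 6 related genes on each array, by group, with a circle for array A, a triangle for array B and a line at their mean; every panel spans the same number of log2 units. NRT1 is high in npt1Δ and with nicotinamide, THI22 is low with nicotinamide, SNZ1 and SNO1 are high with nicotinamide and in pnc1Δ, and SNZ3 and SNO3 are highest in npt1Δ.

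The SNZ and SNO genes make vitamin B6, which supplies the pyrimidine moiety of thiamine. SNZ2, SNZ3, SNO2 and SNO3 are known to be repressed by thiamine, while SNZ1 and SNO1 are known from stationary phase and nutrient limitation. The probe sets of SNZ3 and SNO3 are of a shared design and can take up SNZ2 and SNO2 transcript. Of the 4 measured genes, 3 rose in npt1Δ (3.56% of all probe sets called higher), 3 with nicotinamide (8.88% called higher) and 2 in pnc1Δ (2.24% called in either direction), and none fell in these comparisons.

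SNZ3 read 9.24 and 9.49 in npt1Δ and 8.74 and 8.57 with nicotinamide, against 8.25, 7.98, 8.32 and 8.38 in wild type. Both conditions were above wild type, npt1Δ by more. It rose by 1.13 ± 0.12 in npt1Δ (adjusted p = 0.000154) and by 0.42 ± 0.12 with nicotinamide (adjusted p = 0.0345), and nicotinamide against npt1Δ gave -0.71 ± 0.13 (adjusted p = 0.00768). The nicotinamide call was lost without nicotinamide array A (adjusted p = 0.228) or B (0.0889), and the last one without npt1Δ array B (0.0732) or nicotinamide array B (0.0787). SNO3 read 9.40 and 9.45 in npt1Δ and 8.19 and 7.41 with nicotinamide, against 8.14, 7.74, 8.57 and 8.52 in wild type. It rose in npt1Δ by 1.18 ± 0.27 (adjusted p = 0.0388) and differed by -0.44 (95% interval -1.05 to 0.17) with nicotinamide. Its order of the conditions, npt1Δ above nicotinamide (-1.62 ± 0.31 for nicotinamide against npt1Δ, adjusted p = 0.00914), was opposite to that of THI4 and THI13. The npt1Δ call was lost without either npt1Δ array (adjusted p = 0.201 and 0.202) or either ML1 array (0.0754 and 0.0653), and the difference between the conditions without either npt1Δ array (0.0518 and 0.0594) or nicotinamide array B (0.091).

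SNO1 read 5.06 and 5.13 with nicotinamide and 4.89 and 4.50 in pnc1Δ, against 2.53, 2.46, 2.89 and 2.69 in wild type, while npt1Δ arrays were at 3.03 and 2.46. Its high groups were thus nicotinamide and pnc1Δ and not npt1Δ. The rises were 2.46 ± 0.17 with nicotinamide (adjusted p = 2.79e-06) and 2.06 ± 0.17 in pnc1Δ (adjusted p = 0.000258). SNZ1 read 9.74 and 9.73 with nicotinamide and 9.71 and 9.84 in pnc1Δ, against 8.49 to 8.63 in wild type, rises of 1.17 ± 0.06 and 1.22 ± 0.06. In npt1Δ it rose by 0.33 ± 0.06 (adjusted p = 0.0143, and 0.171 without npt1Δ array A).

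Among 10 genes of enzymes that use thiamine diphosphate as a cofactor, none passed in npt1Δ (none at an unadjusted p under 0.05), and 2 rose with nicotinamide, against 8.88% of all probe sets called higher. PDC6, a minor pyruvate decarboxylase, read 6.29 and 6.53 with nicotinamide, against 5.34, 5.54, 5.35 and 5.46 in untreated wild type (0.99 ± 0.08, adjusted p = 1.37e-05). PDC5 rose by 0.40 ± 0.09 with nicotinamide (adjusted p = 0.0146, and 0.162 without nicotinamide array B), and the main pyruvate decarboxylase gene PDC1 differed by 0.01 (95% interval -0.10 to 0.12). The 6 listed genes of glycine metabolism and iron-sulphur cluster assembly, which touch the thiazole branch, gave no call against wild type in any condition. In pnc1Δ 2 of these 6 had an unadjusted p under 0.05, and in the other 4 conditions none did.

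Among the relatives of PHO3, PHO11 (a shared probe set) rose with nicotinamide by 0.62 ± 0.12 (adjusted p = 0.00558, and 0.0636 without nicotinamide array A), opposite to PHO3. PHO5, the phosphate-regulated phosphatase beside PHO3 on the chromosome, differed by 0.30 (95% interval 0.05 to 0.55, adjusted p = 0.101). Of all probe sets, 3.56% were called higher in npt1Δ and 8.88% with nicotinamide. Among 6 measured permeases related to THI73, SEO1, a putative permease, and TNA1 rose in both conditions. SEO1 read 7.90 and 7.72 in npt1Δ and 8.28 and 8.17 with nicotinamide, against 3.46 to 3.70 in wild type, and TNA1 rose by 1.96 ± 0.10 in npt1Δ and 2.02 ± 0.10 with nicotinamide. The direct chromosomal neighbours of PHO3, THI13, THI2, THI4 and THI73 that had a probe set gave no call in the 5 comparisons with wild type.

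Hst1 is the NAD+-dependent deacetylase that acts as a repressor together with Sum1 and Rfm1. HST1, SUM1, RFM1 and SIR2 transcripts did not pass against wild type in any of the 5 conditions, by limma, and 1 of the 4 (SIR2) had an unadjusted p under 0.05, in tna1Δ. The SIR2 intervals were wide, with differences of 0.72 (95% interval -0.29 to 1.73) in npt1Δ, 0.09 (95% interval -0.92 to 1.09) with nicotinamide and -1.14 (95% interval -2.15 to -0.13) in tna1Δ. Its wild-type control pools the ML1 pair (8.96 and 8.65) with the ML8 pair (10.35 and 10.36), which differ, so no statement on SIR2 is made from these tests. HST1 read 10.82 and 10.72 in npt1Δ and 10.78 and 10.78 with nicotinamide, against 10.78 to 11.18 in wild type. Its difference was -0.17 (95% interval -0.40 to 0.05) in npt1Δ and -0.16 (95% interval -0.38 to 0.06) with nicotinamide.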

How the data were processed

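Per the submitters' processing notes the authors used GCRMA (version not given in the sources used here), and the deposited values, used as they stand, are log2 signal values (the scale as their range shows) of 10928 probe sets on 14 arrays. GCRMA corrects background from probe sequence, normalizes by quantiles and summarises the probes of a set, so a change shared by most genes would be removed and low signals are uncertain. Each probe set took its gene from the platform annotation and its name from the RefSeq R64 assembly, which served for names and neighbours only. Of all probe sets 5498 matched 1 gene, 3470 had no gene, 1746 had a gene not in that reference, 213 were controls and 1 had several genes. The 95th percentile of the 1746 gave each array's background limit (2.22 to 2.26, log2).

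The test was limma 3.58.1 (lmFit and eBayes, R 4.3.3) over all 5498 probe sets and 14 arrays in 6 groups, without a filter, with Benjamini-Hochberg adjustment within each comparison and a threshold of 0.05. A 7-group fit served to compare the wild-type pairs. There were 8 residual and 2.01 prior degrees of freedom. The number of arrays limits the precision. The script was tested on simulated data.

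The members and gene lists were chosen with earlier results of these data known. The text names all members, measured genes of the lists, the deleted genes, the genes of most similar pattern and the neighbours of called members. The wild-type pair, the arrays fitted, normalization, moderation, dim and unmatched probe sets, a 2-fold minimum, a replicate block and each array left out were tried as alternatives. Sequences were not used here.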

Additional observations from a re-analysis of the deposited data

Results flagged for a closer look

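The signal of NRT1 on the ML1 wild-type array A was 7.86 (log2), apart from the other 3 wild-type arrays at 8.09 to 8.10. Its gap to the nearest array was 0.957 of the range of the 4. Of 21 probe sets examined this was the only 1 with a wild-type array so far from the others, and chance flags about 1 in 20 such groups. NRT1 was called in npt1Δ and with nicotinamide in all 17 alternatives each, including those without this array.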

How the results depend on the processing

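THI2, THI4, THI13 and THI73 were called in all 17 alternatives against wild type in npt1Δ (1.96 to 2.19 for THI13, 1.51 to 1.74 for THI73, 1.41 to 1.55 for THI4 and 1.03 to 1.44 for THI2, log2) and in all 17 with nicotinamide (2.78 to 3.38, 1.87 to 2.10, 1.83 to 1.95 and 1.05 to 1.56). No called value changed sign. Of 162 counts of called members, 156 stayed within 1.5 times. These include comparisons without a called member, where none in both settings counts as unchanged, so the total does not show how stable the calls were. In nicotinamide against npt1Δ, 3 members were called, but 0 with only the groups compared in the fit, 1 with all probe sets fitted and 0 to 2 with an array left out, where the lone array is assumed to vary like the other groups. In pnc1Δ against wild type the replicate block gave 1 (PHO3, adjusted p = 0.0263) where there had been 0. The A arrays often deviated together, with a median r of 0.39 (-0.23 to 0.59) over 21 pairs of groups, above 0.1 in 17. Since 4 pairs fell short and the labels name no shared batch, the letters did not pair the samples in the main test. Whatever the arrays of a letter share therefore stays in the spread of that test. With the replicate block PHO3 was also called in pnc1Δ against npt1Δ (adjusted p = 0.01). Against wild type, 4 members were called with this block in npt1Δ and 5 with nicotinamide. Of all 5498 probe sets, the block gave 284 calls in npt1Δ and 1045 with nicotinamide, in either direction. The main test gave 231 and 874. The cause of these changes was not tested. PHO3 with nicotinamide kept its call in 6 of 17 alternatives (-0.37 to -0.19), and THI21 in npt1Δ gained one in 5 of 17. Calls over all probe sets moved by more than 1.5 times in npt1Δ (231, against 138 with only the groups compared and 112 with a 2-fold minimum), with nicotinamide (874, against 533, 250, and 458 without nicotinamide array B) and in pnc1Δ (123, against 190 with ML1 alone, 186 with the pairs as separate groups, 240 with the replicate block, 29 with only the groups compared, 19 with the 2-fold minimum and 22 to 202 with an array left out). In bna1Δ and tna1Δ they stayed at or under 6, against 1 in each. Pairs of arrays leave small differences undetected, and signals near the background limit understate changes.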

Other observations

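SIR2, which encodes the silencing deacetylase related to Hst1, differed between the wild-type pairs, with 8.96 and 8.65 in ML1 against 10.35 and 10.36 in ML8 (-1.55, adjusted p = 0.0248 by limma). The other groups fell on either side of this gap, with 10.40 and 10.20 in npt1Δ, 9.65 and 9.69 with nicotinamide, 9.11 and 8.67 in pnc1Δ, 10.45 and 10.21 in bna1Δ and 8.67 and 8.21 in tna1Δ. THI2, THI4, THI13 and THI73 differed by at most 0.22 between the ML1 and ML8 pairs. SIR2 was singled out after its values were seen.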
